A study of Mus musculus with 2 samples.

Results

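The genes described here are 9 mouse genes of the Zscan4 state, the transcript programme of the two-cell embryo that rare pluripotent cells also show. They are Zscan4c, Zscan4d, Zscan4f, Tcstv1, Tcstv3, Zfp352, Tmem92, Usp17lc and Eif1ad10, taken by symbol from the 33696 genes of the deposited matrix, which held all 9. Because near-identical copies can share reads, they were read as 6 families, namely Zscan4c with Zscan4d and Zscan4f, Tcstv1 with Tcstv3, and the other 4 genes singly. The study described droplet-based single-cell RNA sequencing of embryoid bodies on day 2, aggregates of differentiating cells made from epiblast stem cells, and of the epiblast stem cells themselves, pluripotent cells of the primed state. Both came from the line Delmix, the stem cells are labelled as untreated, and each group was 1 sample. The counts lie in 1 pooled matrix whose cell tags, CMO311 and CMO312, correspond to neither sample's labels. The values therefore describe the pool, the groups could not be compared, and no test was possible across samples. Cells of 1 library are not replicates, so values carry exact 95% intervals that cover counting error only and no p-value.

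Of 21593 called cells, 16841 (78.0%) were kept because they had 1000 genes or more and a mitochondrial share of UMIs no greater than 10%. They held 121114764 UMIs (unique molecular identifiers, which mark single captured molecules), with a median of 6473 per cell and a range of 1265 to 34748. The labels name the cells as epiblast stem cells and their derivatives; the kept cells included a naive pluripotency-like cluster of 4923 cells and a fibroblast or feeder-like cluster of 606 cells.

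In the mouse, these genes are switched on in a burst when the embryonic genome is activated. In cultures of embryonic stem cells they appear together in a small, passing fraction of cells. Zscan4 proteins, which carry a SCAN domain and zinc fingers, are known for telomere lengthening and genome stability in those cells, and the homeobox factor DUX is known to switch on much of the programme. Primed epiblast stem cells are not the culture in which this state is usually studied.

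RefSeq promoter windows, each of 300 bases from 250 before to 50 after the transcript start, were at hand for 5 of the 9 members. They are shown because the members were found in the same cells and because the 3 Zscan4 windows are nearly one sequence. On GRCm38.p6 they lie at chr7:11005495-11005794 (plus strand) for Zscan4c, chr7:11166099-11166398 (minus strand) for Zscan4d and chr7:11397665-11397964 (plus strand) for Zscan4f. Those of Usp17lc and Zfp352 lie at chr7:103416446-103416745 and chr4:90218570-90218869, both on the plus strand. Each is printed 5′ to 3′ in the direction of its gene, with the letters TATAAA in capitals.
Zscan4c: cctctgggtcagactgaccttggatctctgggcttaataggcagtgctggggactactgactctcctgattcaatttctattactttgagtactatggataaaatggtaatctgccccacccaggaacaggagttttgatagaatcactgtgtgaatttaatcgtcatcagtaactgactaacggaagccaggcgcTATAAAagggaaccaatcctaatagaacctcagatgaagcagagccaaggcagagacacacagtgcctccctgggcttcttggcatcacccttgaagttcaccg
Zscan4d: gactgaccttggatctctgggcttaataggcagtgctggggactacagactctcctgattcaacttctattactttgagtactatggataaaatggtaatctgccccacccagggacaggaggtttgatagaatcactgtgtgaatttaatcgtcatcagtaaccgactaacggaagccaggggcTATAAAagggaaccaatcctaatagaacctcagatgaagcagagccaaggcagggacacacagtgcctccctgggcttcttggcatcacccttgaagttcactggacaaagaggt
Zscan4f: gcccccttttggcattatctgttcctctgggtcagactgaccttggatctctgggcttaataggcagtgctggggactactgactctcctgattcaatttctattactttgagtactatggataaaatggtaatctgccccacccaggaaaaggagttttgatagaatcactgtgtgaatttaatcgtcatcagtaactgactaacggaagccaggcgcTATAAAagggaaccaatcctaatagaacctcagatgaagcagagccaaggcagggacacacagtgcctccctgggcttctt
Usp17lc: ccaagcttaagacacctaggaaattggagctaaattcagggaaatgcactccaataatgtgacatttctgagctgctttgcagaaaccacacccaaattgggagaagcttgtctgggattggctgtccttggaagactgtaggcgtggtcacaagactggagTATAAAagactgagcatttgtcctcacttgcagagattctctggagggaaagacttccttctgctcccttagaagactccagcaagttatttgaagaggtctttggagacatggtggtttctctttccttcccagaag
Zfp352: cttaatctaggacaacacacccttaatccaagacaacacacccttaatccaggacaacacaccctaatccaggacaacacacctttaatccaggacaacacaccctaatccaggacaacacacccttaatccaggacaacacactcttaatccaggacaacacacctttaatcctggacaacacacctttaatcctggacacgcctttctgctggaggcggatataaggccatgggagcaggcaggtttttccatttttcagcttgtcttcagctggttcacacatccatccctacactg
The windows of Zscan4c and Zscan4f shared 275 of 277 aligned bases (99.3%), those of Zscan4c and Zscan4d 280 of 287 (97.6%), and those of Zscan4d and Zscan4f 259 of 266 (97.4%). TATAAA lay on the gene's own strand in all except that of Zfp352, and began 54 bases before the start of Zscan4c, 65 before that of Zscan4d, 31 before that of Zscan4f and 88 before that of Usp17lc. These letters, searched on both strands, are in 13.6% of 32851 windows of the same length, and none were found in the Zfp352 window. The letters GATTNAATC, the core of the motif bound by DUX, were searched in the same way, are in 0.268% of those windows and were in 0 of these 5.

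The members were rare transcripts of the culture as a whole. Their summed level over all kept cells was 42.3 CPM (a gene's UMIs scaled to the UMI total of the same cells and not divided by transcript length), and 475 of 16841 kept cells held at least 1 of their 5126 UMIs. Zscan4d (ENSMUSG00000090714) had 1465 UMIs in 188 cells, or 12.1 CPM (11.5 to 12.7), with up to 189 UMIs in 1 cell. Its relative Zscan4c (ENSMUSG00000054272) had 295 UMIs in 102 cells, or 2.44 CPM (2.17 to 2.73). Zscan4f (ENSMUSG00000070828) had 109 UMIs in 60 cells, or 0.900 CPM (0.739 to 1.09). A UMI of Zscan4d was thus found in 1.12% of kept cells (0.963 to 1.29%), and the 10 cells richest in it held 42.0% of its UMIs, with 12.9% in a single cell.

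Tcstv1 (ENSMUSG00000096284) and Tcstv3 (ENSMUSG00000095821), genes named for variable expression at the two-cell stage, had 238 UMIs in 70 cells and 139 UMIs in 55 cells, or 1.97 CPM (1.72 to 2.23) and 1.15 CPM (0.965 to 1.36). Zfp352 (ENSMUSG00000070902), a zinc finger gene, had 115 UMIs in 42 cells, or 0.950 CPM (0.784 to 1.14). Tmem92 (ENSMUSG00000075610), which encodes a transmembrane protein, was spread most evenly, with 97 UMIs in 74 cells, at most 4 in any cell, and a level of 0.801 CPM (0.650 to 0.977). Usp17lc (ENSMUSG00000058976), a deubiquitinating enzyme gene, had 121 UMIs in 69 cells, or 0.999 CPM (0.829 to 1.19). Eif1ad10 (ENSMUSG00000095799), of a family of copies named for the domain of translation initiation factor eIF1A, had 2547 UMIs in 301 cells, or 21.0 CPM (20.2 to 21.9), with up to 220 UMIs in 1 cell.

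Free RNA carried the members too. In 72027 uncalled droplets of 150 to 300 UMIs, Zscan4d stood at 7.24 CPM (5.96 to 8.70) and Eif1ad10 at 19.0 CPM (16.9 to 21.3), levels at which a single UMI in a cell cannot be told from free RNA. Per 1000 cells or droplets, Zscan4d had 8669 UMIs in joint carriers (defined next), 4.68 UMIs in the other kept cells and 1.57 UMIs in these droplets. Eif1ad10 had 14519 UMIs in joint carriers, 13.4 UMIs in the other kept cells and 4.12 UMIs in the droplets. The other kept cells were thus far closer to cell-free droplets than to joint carriers, although they are much deeper than the droplets.

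The members occurred together. Cells with UMIs of 2 or more of the 6 families, called joint carriers, numbered 160 of 16841 (0.950%, 0.809 to 1.11%), and they held 4696 of the 5126 member UMIs (91.6%). By number of families, 16366 kept cells had 0, 315 had 1, 62 had 2, 39 had 3, 31 had 4, 23 had 5 and 5 had all 6. Depth did not order these classes, whose median UMIs were 6455, 7419, 5817, 6518, 5842, 7097 and 6133 from 0 to 6 families. With each cell thinned to 2000 UMIs, which left out 294 shallower kept cells but no joint carrier, 16308 cells had 0 families, 121 had 1, 63 had 2, 36 had 3, 16 had 4, 3 had 5 and 0 had 6. The richest cell held 275 member UMIs, of which 189 were Zscan4d, 53 Eif1ad10 and 20 Zscan4c. A cell with all 6 families held 16 UMIs of Zscan4d, 108 of Eif1ad10, 5 of Tcstv1, 3 of Usp17lc, 2 of Tmem92 and 1 each of Tcstv3 and Zfp352, besides 4 of Zscan4c.

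**Figure D1:**
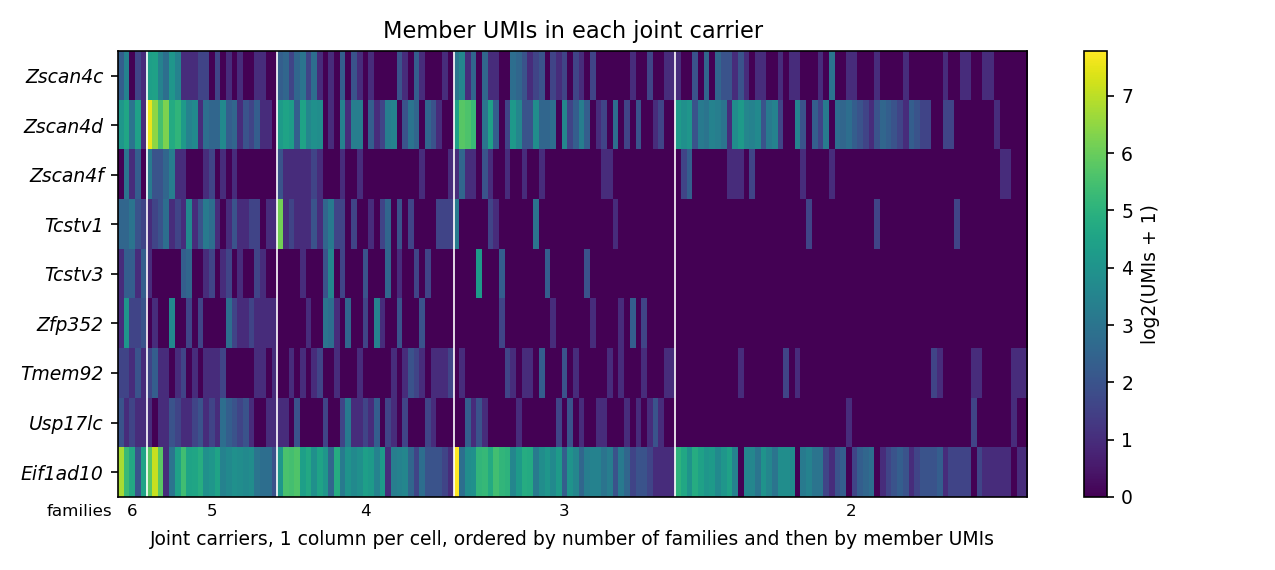
Member UMIs in each of the 160 joint carriers, as log2(UMIs + 1), with 1 column per cell, ordered by the number of families (6 at left to 2 at right, separated by white lines) and then by member UMIs. Zscan4d and Eif1ad10 run through most columns, whereas Tcstv3 and Zfp352 lie only in cells with 3 or more families.

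Single-family cells were mostly cells with 1 UMI. Eif1ad10 alone made up 147 of the 315 (46.7%), and 125 of these 147 had 1 UMI of it. The Zscan4 family alone was found in 92 cells, 81 of them with 1 UMI, and Tcstv genes alone in 41 cells, 28 of them with 1 UMI. Zfp352, Usp17lc and Tmem92 alone were found in 8, 10 and 17 cells, each with 1 UMI. Seen from each family, the joint share was 85.5% of the 69 Usp17lc cells, 81.0% of the 42 Zfp352 cells, 77.0% of the 74 Tmem92 cells, 61.0% of the 105 Tcstv cells, 60.7% of the 234 Zscan4 cells and 51.2% of the 301 Eif1ad10 cells.

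Most joint carriers held both Eif1ad10 (96.3%) and a Zscan4 gene (88.8%), and this pair with no further family was the most frequent combination, in 48 of 160 cells. Zscan4 and Eif1ad10 with Usp17lc followed in 14 cells, and with Tmem92 in 11. Tcstv genes were in 40.0% of joint carriers, Usp17lc in 36.9%, Tmem92 in 35.6% and Zfp352 in 21.3%. Finding at least 2 families is what made a cell a joint carrier, so these shares describe the class and are not evidence for it.

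Each of the 36 pairs of members was found together in at least 8 cells and at most 119. Across the 72 ways to take a member given another, 9.30 to 81.2% of cells with the second member held the first (median 34.4%), against 0.0484 to 1.63% of cells without it. Thinned to 2000 UMIs, the ranges were 2.86 to 92.9% of cells with the second member and 0.00609 to 0.998% of cells without it, with as few as 1 cell behind a pair. The 92.9% was Zscan4d in 13 of 14 Zscan4f cells, copies of 1 family that can share reads. Between families the highest thinned share was Eif1ad10 in 18 of 20 Zfp352 cells (90%). Both directions of a pair could differ widely. Eif1ad10 was found in 34 of 42 Zfp352 cells (81.0%, 65.9 to 91.4%), whereas Zfp352 was found in 34 of 301 Eif1ad10 cells (11.3%, 7.95 to 15.4%). Likewise Zscan4d was in 51 of 69 Usp17lc cells (73.9%, 61.9 to 83.8%) and in 23 of 42 Zfp352 cells (54.8%, 38.7 to 70.2%), whereas 23 of 188 Zscan4d cells (12.2%, 7.92 to 17.8%) held Zfp352. Zfp352 cells were thus mostly cells with several members, and most Zscan4d or Eif1ad10 cells had no Zfp352 UMI at this depth.

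**Figure D2:**
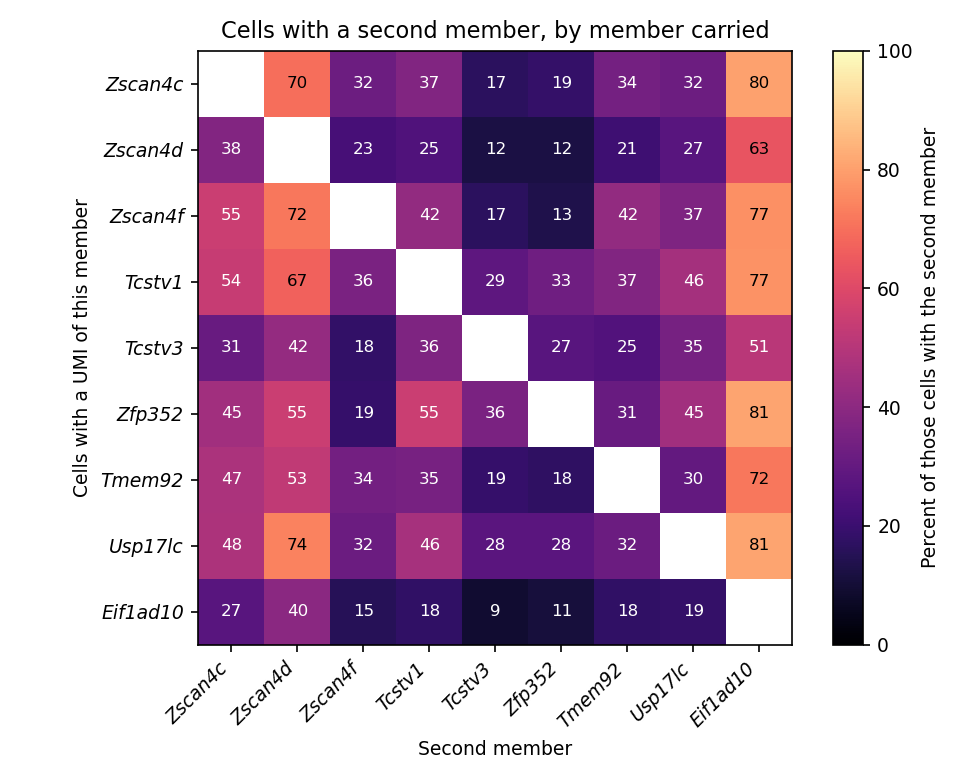
Percent of cells with a UMI of the row member that also held the column member, over kept cells. The Eif1ad10 column reaches 81% (of Zfp352 and Usp17lc cells), and the Eif1ad10 row has its lowest value, 9%, at Tcstv3.

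Across the 160 joint carriers, the families' shares of each cell's UMIs were only loosely graded with each other. Spearman's rho was 0.47 between Zscan4 and Eif1ad10 shares and 0.39 between Tcstv and Zfp352 shares. It lay between −0.16 and 0.36 for the other pairs. The points share 1 library, and both shares of a pair are divided by the same cell total. Cells entered only with UMIs of at least 2 families, which can by itself lower rho between families. These values are descriptions only. The lowest value, −0.16, was between Zscan4 and Zfp352.

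A grouping that leaves each member's own family out gives levels that the grouping did not set. Zscan4d stood at 0.662 CPM (0.523 to 0.826) in 16458 cells with 0 other families, at 114 CPM (100.3 to 128) in 275 cells with 1 and at 1324 CPM (1247 to 1403) in 108 cells with 2 or more. Eif1ad10 stood at 1.89 CPM (1.65 to 2.16), 217 CPM (197 to 239) and 2312 CPM (2209 to 2418) in the same steps, and 98 of the 104 cells with 2 or more other families (94.2%) held it. For all 9 members the interval at 2 or more other families lay wholly above that at 0. At the middle step, with 1 other family, 25% of cells (19.5 to 31.2%) held Eif1ad10 and 16% (11.9 to 20.9%) held Zscan4d. Tcstv3 was in 0 of 277 such cells and Zfp352 in 0 of 307. For these, 3 counts, the limit that a count of 0 allows, come to 1.08% and 0.977% of cells. Zfp352 then reached 82.2 CPM (67.3 to 99.3) and Tcstv3 72.3 CPM (58.4 to 88.6) in cells with 2 or more other families. Usp17lc and Tcstv1 had a higher level at the middle step than with 0 other families, but in only 3 cells each. These were 3 of 308 cells (0.974%, 0.201 to 2.82%) for Usp17lc and 3 of 277 (1.08%, 0.224 to 3.13%) for Tcstv1. Such shares cannot be told from the 0 counts of Tcstv3 and Zfp352. Usp17lc stood at 0.0853 CPM (0.0409 to 0.157) with 0 other families, 1.54 CPM (0.421 to 3.95) with 1 and 83.2 CPM (68.2 to 100.5) with 2 or more. Tcstv1 stood at 0.128 CPM (0.0715 to 0.211), 2.54 CPM (0.931 to 5.52) and 169 CPM (147 to 193) in the same steps. Tmem92 was in 10 of 308 cells with 1 other family (3.25%, 1.57 to 5.89%). Median depths were 6460 UMIs with 0, 7390 with 1 and 6572 with 2 or more families other than Zscan4.

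**Figure D3:**
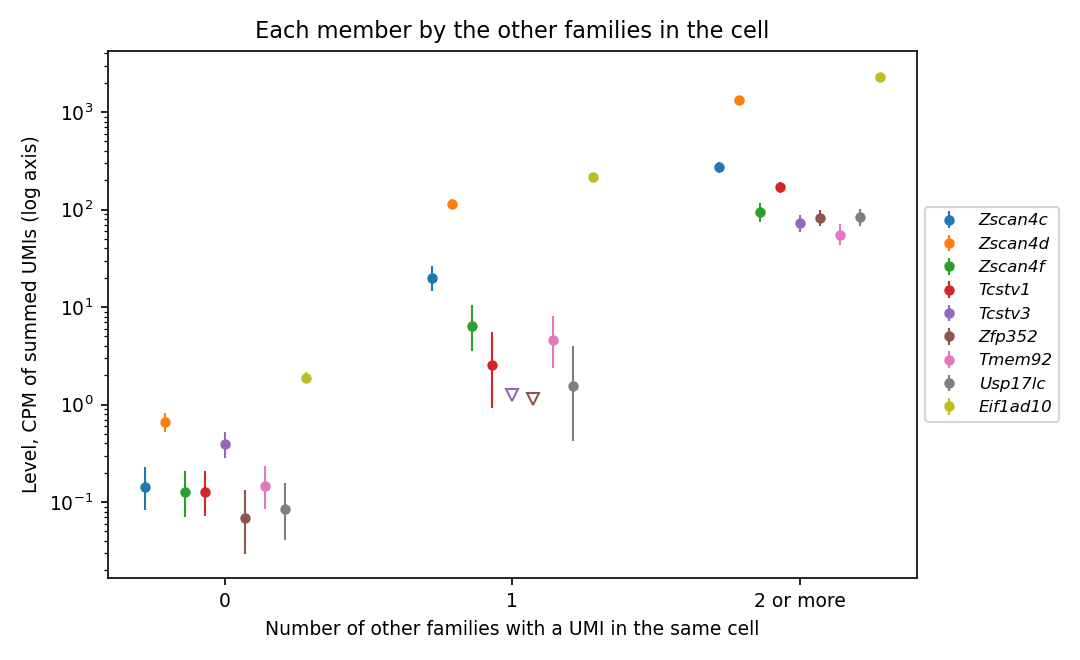
Level of each member, in CPM of summed UMIs on a log axis, in kept cells by the number of other families with a UMI in the same cell. Points carry exact 95% Poisson intervals, and open triangles mark the level of 3 counts where the count was 0 (Tcstv3 and Zfp352 with 1 other family); every member is highest with 2 or more other families.

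Within joint carriers the UMIs per cell were uneven. Zscan4d ran between 0 and 189 UMIs with a median of 3.5 in joint carriers, and between 0 and 7 with a median of 0 in the 16681 other kept cells. Eif1ad10 ran between 0 and 220 with a median of 9.5 in joint carriers, and between 0 and 19 with a median of 0 in the others. Tcstv1 reached 69 UMIs in 1 joint carrier, 29.0% of its UMIs in the kept cells, and at most 1 in any other kept cell. Usp17lc reached 8, Zfp352 16 and Tmem92 4 UMIs in joint carriers, and none of these exceeded 1 UMI elsewhere. Together the members made up a median of 0.279% and at most 3.86% of a joint carrier's UMIs.

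Joint carriers were cells of ordinary depth. Their median was 6520 UMIs and 2346 genes, against 6472 UMIs and 2684 genes in the other kept cells, and their median mitochondrial share was 3.51%, against 3.13% in the others. Scrublet called 12 of 160 joint carriers doublets (7.50%, 3.94 to 12.7%) and 1718 of the other kept cells (10.3%). Median tag UMIs were 1192 of CMO311 and 394.5 of CMO312 in joint carriers, against 1052 and 400 in the others.

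The other copies of these families followed the members. Over all genes without the members, 7322 reached 20 CPM in joint carriers or in the other kept cells and were compared. Of these, 657 (8.97%) were at least 2-fold higher in joint carriers and 357 (4.88%) at least 2-fold lower, with a median log2 ratio of −0.22, all on a scale of log2(CPM + 1). All 24 copies in the matrix had a higher level in joint carriers, and their summed level was 8369 CPM there, against 10.2 CPM in the other kept cells. Among the copies, 22 reached 20 CPM, all of them in joint carriers only, which by itself makes a gene far lower elsewhere count as higher; their median log2 ratio was 7.62. Zscan4e was at 812 CPM in joint carriers against 0.960 CPM in the others and Zscan4-ps2 at 333 CPM in joint carriers against 0.584 CPM in the others. Eif1ad8 was at 1191 CPM in joint carriers against 1.38 CPM in the others and Eif1ad7 at 1146 CPM in joint carriers against 1.25 CPM in the others. The related gene Eif1ad differed from its copies, with 85.2 CPM in joint carriers and 78.2 CPM in the others, and 1.17% of its UMIs in joint carriers.

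No source used here states where reads that match several copies were placed, which leaves the split of UMIs within a family uncertain. In the last 500 bases of the GENCODE M21 transcripts, 100% of the 90-base stretches of Eif1ad10 also occurred in other genes, as did 79.1% for Zscan4f, 38.7% for Zscan4c and 24.8% for Zscan4d. The share was 4.48% for Tcstv3 and 0.612% for Tcstv1, and 0 for Zfp352, Tmem92 and Usp17lc. No stretch was shared between members of different families.

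Outside the members, the genes most alike were those with the largest share of their UMIs in joint carriers among 17179 genes of at least 50 UMIs; over 50% of UMIs lay there for 114 genes. Gm4340, with 363 of 377 UMIs (96.3%), led, followed by Gm48578 (95.7%), Or6c217 (95.4%), Eif1ad18 (95.2%), Pramel18 (94.2%), Gm43678 (94.1%), Zscan4b (93.8%) and B020031M17Rik (93.7%). Eif1ad16 (93.1%), Gm14742 (93.0%), Zscan4-ps3 (92.8%) and Pramel19 (92.6%) completed the 12. The members themselves had 82.5 to 94.7% of their UMIs there, except Tcstv3 with 66.9%.

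Other known two-cell genes were higher as well. Of 24 listed genes in the matrix, 18 had a higher level in joint carriers, 1 (AU018091) had a lower level and 5 had no UMI in any kept cell. Of these, 10 were compared, and 9 of them were at least 2-fold higher, with a median log2 ratio of 4.11; 6 of the 10 reached 20 CPM in joint carriers only. Gm4340 stood at 279 CPM (251 to 309) in joint carriers and 0.117 CPM (0.0639 to 0.196) in the other kept cells. AF067061 stood at 117 CPM in joint carriers against 0.109 CPM in the others, Ubtfl1 at 45.3 CPM in joint carriers against 0.0918 CPM in the others and Sp110, a nuclear body gene, at 50.7 CPM in joint carriers against 0.467 CPM in the others. Arg2, a mitochondrial arginase, was at 72.2 CPM in joint carriers against 1.21 CPM in the others and Fbxo15, an F-box gene of pluripotent cells, at 588 CPM in joint carriers against 64.2 CPM in the others. In a comparison weighted by the clusters of the joint carriers, which rests mainly on the 37 other cells of cluster 9, the cluster that held most joint carriers, 7 of these 9 stayed past the rule, and Fbxo15 (log2 ratio 0.40) and Usp26 (−0.27) did not. Of those 37 cells, 34 held UMIs of the other family copies, so here and below this comparison is partly with cells of the same programme. A weighted ratio near 0 thus does not show that a gene differs little from cells without the programme. Duxf3, the gene of DUX, which acts upstream of the programme, had 7 UMIs in 7 of 160 joint carriers and 4 UMIs in 4 of 16681 other kept cells. These UMIs are few, and Duxf3 was under the minimum of 20 CPM in both sets, so the rule was not applied to it.

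Of 9 regulators known to favour the state, 7 were compared, all with at least 20 CPM in both sets of cells, and 3 were at least 2-fold higher. Nelfa, a subunit of the negative elongation factor, stood at 402 CPM (369 to 438) in joint carriers and 74.1 CPM (72.6 to 75.6) in the others. Dppa2, a chromatin-bound activator of Dux, was at 433 CPM in joint carriers against 81.1 CPM in the others, and Dppa3, a maternal factor, at 362 CPM in joint carriers against 90.5 CPM in the others. Weighted by cluster, the log2 ratios of Dppa2 and Dppa3 were 0.22 and 0.18, under the 2-fold rule, against 2.40 and 1.99 with all other kept cells as they stand. The weighted levels of the comparison cells were 372 and 320 CPM, and most of these cells held other family copies. Top2a, the DNA topoisomerase of dividing cells, was at 302 CPM in joint carriers against 488 CPM in the others, under the rule.

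Of 18 regulators known to hold the state back, all were compared and 0 were 2-fold apart, with a median log2 ratio of −0.10. Mga, of the non-canonical Polycomb complex PRC1.6, was nearest the rule, at 62.2 CPM (49.4 to 77.3) in joint carriers and 119 CPM (117 to 121) in the others. It passed the rule with at least 3 families (log2 ratio −1.13), without doublets (−1.05), without Eif1ad10 (−1.02) and with 2 or more UMIs per family (−1.07). Lin28a, an RNA-binding protein, was at 69.9 CPM in joint carriers against 105 CPM in the others, Daxx, a histone chaperone, at 47.6 CPM in joint carriers against 66.4 CPM in the others, and Rif1, a regulator of replication timing, at 555 CPM in joint carriers against 391 CPM in the others.

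**Figure D4:**
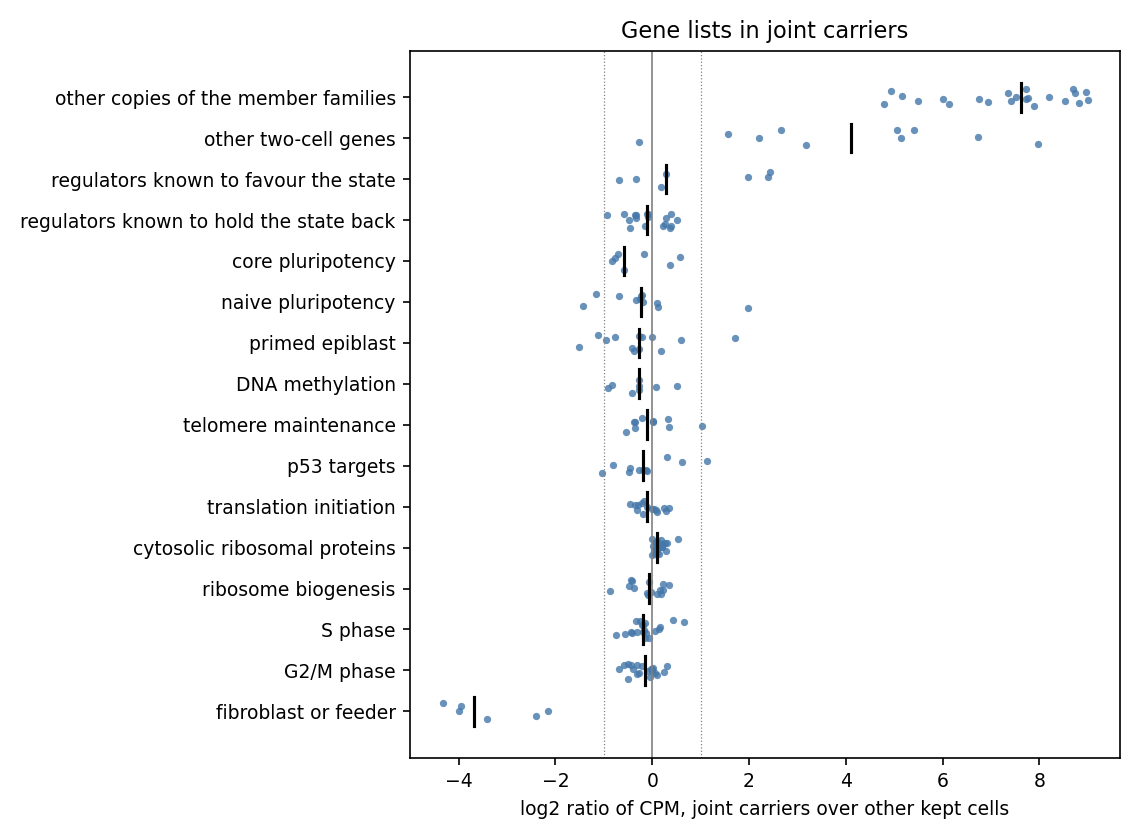
log2 ratio of CPM, with 1 CPM added, in joint carriers over other kept cells for each compared gene (points) of 16 lists, with the list median (black bar) and the 2-fold limits (dotted lines). The other family copies lie between 4.8 and 9.0 and the fibroblast or feeder genes below −2, while most points of the pluripotency, translation, ribosome and cell cycle lists lie within the 2-fold limits.

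Pluripotency genes were mostly within 2-fold. Of 7 core genes, 0 were 2-fold apart; Nanog was at 38.4 CPM in joint carriers against 68.8 CPM in the others, Sox2 at 117 CPM in joint carriers against 191 CPM in the others and Utf1 at 106 CPM in joint carriers against 182 CPM in the others. Their median log2 ratio was −0.58, beside −0.22 over all compared genes, but 0.0094 when weighted by cluster, where Nanog, Sox2 and Utf1 were at 0.030, 0.0094 and 0.42. Of 11 naive pluripotency genes compared, Dppa3 was higher while Esrrb (14.6 CPM in joint carriers against 41.1 CPM in the others) and Tfcp2l1 (12.3 CPM in joint carriers against 28.5 CPM in the others) were lower. Of 13 primed epiblast genes compared, Sox3 was higher (53.7 CPM in joint carriers against 15.8 CPM in the others), and Zic5 (14.6 CPM in joint carriers against 43.2 CPM in the others) and Otx2 (30.7 CPM in joint carriers against 68.0 CPM in the others) were lower. Weighted by cluster, none of these naive and primed genes stayed past the rule: Tfcp2l1 and Otx2 turned round to log2 ratios of 0.22 and 0.74, and Dppa3 (0.18), Esrrb (−0.064), Sox3 (0.84) and Zic5 (−0.86) fell under it. Among DNA methylation genes, 0 of 8 compared were 2-fold apart, and Dnmt3l was at 115 CPM in joint carriers against 80.4 CPM in the others.

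Of 10 telomere genes compared, 1 was higher, the telomere helicase gene Rtel1, at 45.3 CPM (34.5 to 58.4) in joint carriers and 21.6 CPM (20.8 to 22.5) in the others, just past the rule. It fell under the rule without clusters 7, 8 and 10 (log2 ratio 0.99) and was not compared at a minimum of 50 CPM, whereas 3 telomere genes were higher when weighted by cluster, among them Terf2 at 1.02, against −0.38 without weighting. The telomere-binding Terf1 was at 116 CPM in joint carriers against 169 CPM in the others. Of 11 p53 targets compared, Pmaip1 was higher (127 CPM in joint carriers against 57.3 CPM in the others) and Bbc3 lower (29.2 CPM in joint carriers against 60.9 CPM in the others), both genes of cell death. Pmaip1 had a log2 ratio of −0.21 when weighted by cluster, against 1.13 without weighting; Bbc3 had −0.38 when weighted and −0.87 without Eif1ad10, against −1.04. Translation initiation (15 genes compared), cytosolic ribosomal proteins (22), ribosome biogenesis (15), S phase (20) and G2/M phase (20) each had 0 genes 2-fold apart, with median log2 ratios of −0.10, 0.10, −0.07, −0.19 and −0.15. Of the 22 ribosomal protein genes, 21 had a slightly higher level in joint carriers, as Rplp0 with 3654 CPM in joint carriers against 2524 CPM in the others. Over all 7322 compared genes, 2290 had a higher level there. Weighted by cluster, the median log2 ratio of the ribosomal protein genes was 0.019, with Rplp0 at 0.13 and Rplp1 at −0.043.

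Markers of other cell types were mostly lower in joint carriers. All 6 fibroblast or feeder genes compared were lower, and the list's summed level was 35.3 CPM in joint carriers and 324 CPM in the other kept cells. Collagen gene Col3a1 was at 2.30 CPM in joint carriers against 65.4 CPM in the others. Without clusters 7, 8 and 10 among the other kept cells, 0 of those genes were lower and Col3a1 had a log2 ratio of 0.046, so these ratios depend on which cells the others include. Of the 10 listed genes, 2 had no UMI in joint carriers. Cldn7 was lower among 6 epithelial genes compared, and Meis1 and Meis2 among 3 of the caudal epiblast. Fgf8 was lower among 2 of the primitive streak and mesoderm, and Tfap2c among 3 of germ cells and as the 1 gene of the trophoblast. Each of these genes turned round when weighted by cluster, but their weighted levels were only 0.747 CPM (Meis2) to 18.75 CPM (Cldn7). Those levels come mainly from the 37 other cells of cluster 9 and rest on few UMIs. Of 10 neural genes, 7 had a lower level in joint carriers; 3 were compared and 2 were higher, both of which reached 20 CPM in joint carriers only. The axon guidance receptor gene Dcc stood at 178 CPM (156 to 203) in joint carriers and 2.19 CPM (1.93 to 2.47) in the others, and the synaptic gene Nrxn3 at 27.6 CPM in joint carriers against 2.65 CPM in the others. Weighted by cluster, Dcc stayed past the rule (log2 ratio 3.38) and Nrxn3 did not (0.73). Of 10 macrophage and 8 primitive endoderm genes, 1 and 0 were compared and 0 were higher or lower. The macrophage gene, Lyz2, had 27 UMIs in 4 joint carriers and no stable direction, with a log2 ratio of −0.85 as reported, −3.38 (lower) without doublets, 1.24 (higher) when weighted by cluster and 3.20 (higher) without clusters 7, 8 and 10.

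Clusters were made without the members, the other copies and two-cell genes of the lists, and the S and G2/M phase genes. Genes outside those lists that were concentrated in joint carriers, as Pramel18 and Eif4a3l1, were not left out. The clusters are therefore not independent of the programme. Of the 160 joint carriers, 147 (91.9%) fell into 1 of 10 clusters, cluster 9, and made up 79.9% of its 184 cells (73.4 to 85.4%). Elsewhere joint carriers numbered 5 of 3156 cells in cluster 3 (led by Car4, Mt1 and Pou3f1), 4 of 4923 in the naive pluripotency-like cluster 1, 3 of 964 in the simple epithelium-like cluster 5 and 1 of 3884 in cluster 2 (led by Hs3st4 and Ptprt). Clusters 4, 6, 7, 8 and 10 held 0, which for the 606 fibroblast-like cells of cluster 8 allows up to 0.495%. Thinned to 2000 UMIs, a Zscan4 UMI was found in 113 of 182 cells of cluster 9 (62.1%, 54.6 to 69.2%), against 1 of 598 in cluster 8 (0.167%, 0.00423 to 0.928%), a cell type that should lack it; their unthinned median depths were 5860 and 6951 UMIs.

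**Figure D5:**
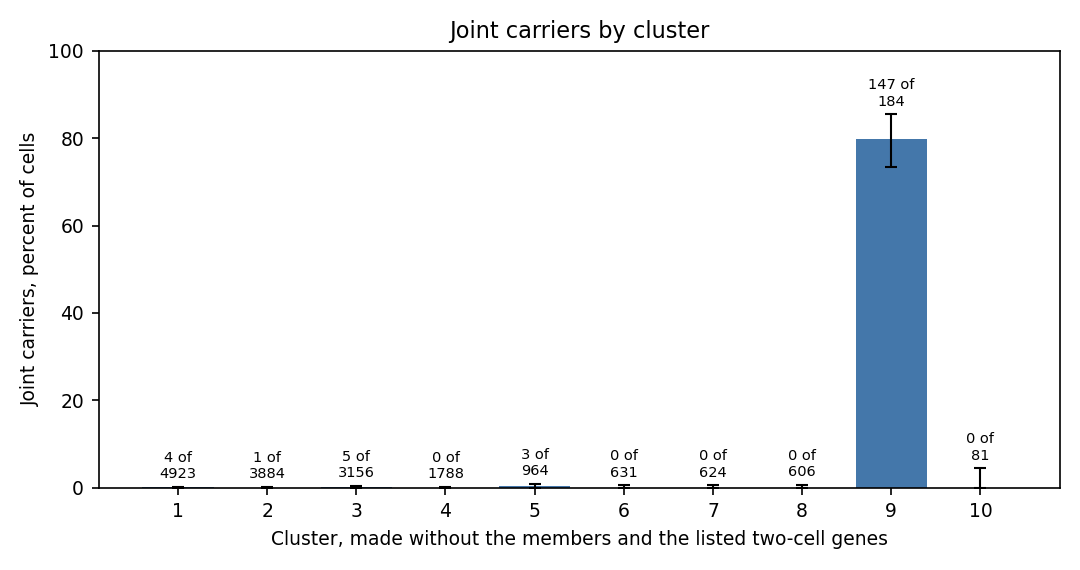
Joint carriers as percent of the cells of each cluster, with exact 95% binomial intervals and the counts above the bars. Cluster 9 stands at 79.9%, and no other cluster exceeds 0.311%.

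By member, cluster 9 stood at 961 CPM (910 to 1014) for Zscan4d, 196 CPM (173 to 220) for Zscan4c, 160 CPM (139 to 182) for Tcstv1, 77.0 CPM (63.1 to 93.0) for Zfp352 and 1694 CPM (1626 to 1764) for Eif1ad10. Zscan4d in the naive-like cluster 1 was at 0.494 CPM (0.293 to 0.781) and in cluster 8 at 0.400 CPM (0.0484 to 1.44). In the simple epithelium-like cluster 5, Zscan4d reached 7.97 CPM (6.10 to 10.2), but 3 joint carriers held all except 3 of its 61 UMIs. The 37 cells of cluster 9 that were not joint carriers were not free of the programme, since 34 held UMIs of the other family copies, at a median of 6 per cell, and 14 had no member UMI at all. The 13 joint carriers outside cluster 9 had few members, with a median of 3 member UMIs and 2 families, and 12 of them held other copies. Cluster 9 took no name here, because no marker list met the naming rule. Its best list, neural, had 2 markers higher and 0 among the 10 leading genes. The leading genes of cluster 9 are members and copies.

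Tcstv3 was the 1 member with UMIs concentrated in a second place, a pattern looked at after its values had been seen. Of the 27 cells with Tcstv3 and no other family, 21 lay in cluster 7, named primitive streak and mesoderm-like, which has 624 cells (3.37%, 2.10 to 5.10%) and is led by Prdm6, Cyp26a1, Fgf10, Mesp1 and Mixl1. They held 40 Tcstv3 UMIs, 1 to 6 per cell with a median of 2, so that Tcstv3 stood at 9.24 CPM (6.6 to 12.6) in that cluster, against 67.6 CPM (54.7 to 82.8) in cluster 9. Cluster 1 had Tcstv3 in 2 of 4923 cells and cluster 8 in 0 of 606, at deeper median UMIs of 6783 and 6951 against 5952 in cluster 7. Without thinning, the share in cluster 7 lay above both beyond counting error. The remaining members were at or near 0 in cluster 7: Zscan4d had 5 UMIs, Zscan4c, Tcstv1 and Eif1ad10 had 1 each, and Zscan4f, Zfp352, Tmem92 and Usp17lc had 0, which allows up to 0.693 CPM.

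The 21 cells held 0 UMIs of the other family copies and 0 of Zscan4, and 1 of them held Tcstv1. The 28 joint carriers with Tcstv3 held 3090 UMIs of other copies, 24 held Zscan4 and 19 held Tcstv1. Hand1, a transcription factor gene of lateral and extraembryonic mesoderm, was found in 10 of the 21 (47.6%, 25.7 to 70.2%), against 145 of the 603 other cells of cluster 7 (24.0%, 20.7 to 27.7%), but these intervals overlap and median depth was higher in the 21, at 7370 UMIs, against 5898 UMIs in the 603. Scrublet called 4 of the 21 (19.0%) and 112 of the 603 (18.6%) doublets. Thinned to 2000 UMIs, Tcstv3 was left in 5 of 612 cells of cluster 7 (0.817%, 0.266 to 1.90%) and in 14 of 182 cells of cluster 9 (7.69%, 4.27 to 12.6%). It was left in 1 of 4879 cells of cluster 1 (0.0205%, 0.000519 to 0.114%) and in 0 of 598 of cluster 8 (0 to 0.615%). The thinned intervals of clusters 7 and 8 overlapped, whereas those of clusters 7 and 1 did not.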

How the data were processed

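The deposited matrix holds raw UMI counts per gene and barcode from Cell Ranger 8.0.1, per the file headers. The labels' protocols describe 3′ chemistry and a channel for each sample, whereas the matrix is 1 pool of 2578653 barcodes. The deposited tag table, per the file headers a tag call for each called cell, left 21465 of 21593 unassigned. The submitters' processing notes also name Seurat, of which no values were used. The aligner's settings, genome build and annotation are not given in the sources used here; promoter windows are RefSeq's.

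CPM were computed from UMIs summed over cells, with exact Poisson intervals; shares have exact binomial (Clopper-Pearson) intervals of 95%, and a count of 0 was also read as allowing 3 counts. PCR copies were removed only through UMIs, so intervals cover counting error alone. Ratios used log2(CPM + 1), and genes counted as higher or lower at 2-fold or more with at least 20 CPM in the higher set. Simulated counts covered only larger changes at higher levels, without variation between cells, and so do not test this rule at its limits. Cells were clustered in scanpy 1.11.5 (Leiden, resolution 0.5, 2000 variable genes, 30 components, 15 neighbours). Clusters of at least 100 cells were named where at least 3 listed markers led. Doublets called by Scrublet at an expected rate of 0.1 (1730 cells, 10.3%) were left in, and free RNA was not removed. Named genes were all members, up to 4 of each list with the largest log2 ratio, the 12 most alike genes and leading genes of clusters; Zscan4e, Zscan4-ps2, Eif1ad, Arg2, Fbxo15, Usp26, Duxf3, AU018091 and those of the closing section were chosen after their values were seen. Members and lists were chosen with earlier results of these data known. Alternatives covered the cell filter, doublets, thinning, the definition of joint carriers, the minimum level, the total, the comparison cells and the resolution.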

Additional observations from a re-analysis of the deposited data

Results flagged for a closer look

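Joint carriers also occurred among called cells that failed the cell filter, which the results above do not use. Of 4752 such cells, 31 held at least 2 of the 6 families (0.652%, 0.444 to 0.925%), against 0.950% (0.809 to 1.11%) of kept cells. They held 572 member UMIs at a median depth of 1179 UMIs per cell over the 4752. Of the 31, 28 were among 3345 cells under 1000 genes (0.837%, 0.557 to 1.21%), and 3 were among 1407 cells with enough genes but over 10% mitochondrial UMIs (0.213%, 0.0440 to 0.622%). The members' summed level was 138 CPM in the cells under 1000 genes and 36.7 CPM in the cells over the mitochondrial limit. Depth and cell quality differ between these cells and the kept cells, and their part in the values was not tested.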

How the results depend on the processing

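The share of joint carriers, 0.950% of kept cells, was 0.582% with at least 3 families, 0.724% with at least 3 of 9 members, 0.742% under a stricter cell filter (2000 genes, 5% mitochondrial), 0.713% after thinning, 0.618% without Eif1ad10 and 0.766% with 2 or more UMIs per family; the last 2 settings, and leaving out clusters 7, 8 and 10, were chosen after seeing the data. It was 0.907% under a more lenient filter and 0.979% without doublets. The members' summed level, 42.3 CPM, was 32.0 under the stricter filter, 44.6 under the lenient one, 46.9 without doublets and 55.0 with mitochondrial and ribosomal protein genes left out of the total. The 657 higher genes were 369 at a minimum of 50 CPM, where fewer genes enter, and 615 to 773 elsewhere. The 357 lower genes were 598 with at least 3 families, 127 at 50 CPM and 583 without doublets, and 293 to 514 elsewhere. Weighted by cluster, 370 of 615 higher and 38 of 394 lower genes were shared with those reported. Its comparison cells are mainly the 37 of cluster 9, and there 23 of 76 named log2 ratios changed sign: 14 that were under the 2-fold rule to start with (Terf2 and Lyz2 then passed it, at 1.02 and 1.24) and 9 that had been past it, Tfcp2l1 (0.22), Meis2 (3.64), Tfap2c (1.08), Mmp3 (1.86), Meis1 (0.35), Cldn7 (0.032), Otx2 (0.74), Pmaip1 (−0.21) and Fgf8 (2.32). The weighted levels of these 9 genes except Pmaip1, and of Terf2 and Lyz2, were under 20 CPM, as 0.747 CPM for Meis2 and 0.118 CPM for Mmp3. Their weighted ratios thus rest on few UMIs. Without clusters 7, 8 and 10 signs changed for Lyz2 (3.20), under the rule before, and for Col3a1 (0.046), Col1a2 (0.59), Mmp3 (0.77) and Dcn (0.080). At resolution 1.0, 93.8% of joint carriers lay in 1 cluster. Of 608 pairs of a named gene and a setting, 579 kept the sign of the ratio, 25 of these losing their call and 22 gaining one. The other 29 changed sign, 13 of them called. The 579 include 76 pairs at a minimum of 50 CPM, which alters only the call, so that their sign could not change. The change of total shifts all ratios nearly alike, and its 76 pairs all kept their sign too. The causes were not tested. Depth limits single members most: a cell with 0 UMIs of Zfp352 or Tcstv3 may still express it. No paired analysis was possible because the groups share 1 pooled matrix with no map to samples.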

Other observations

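Genes outside the lists were also concentrated in joint carriers; those named here were chosen after their values were seen. All 10 Pramel genes compared, of a multigene family expressed in germ cells and early embryos, reached 20 CPM in joint carriers only, which by itself favours a call as higher; all 10 were so called, with log2 ratios of 1.08 to 4.04 when weighted by cluster. The 47 in the matrix summed to 2128 CPM in joint carriers and 16.2 CPM in the other kept cells. Eif4a3l1, a copy of an RNA helicase gene of the exon junction complex, was at 563 CPM (523 to 605) in joint carriers and 0.618 CPM (0.485 to 0.775) in the others. Several other genes showed the same contrast at a lower ratio, as Popdc3 at 319 CPM in joint carriers against 1.78 CPM in the others, Inpp4b, a phosphoinositide phosphatase, at 353 CPM in joint carriers against 2.17 CPM in the others, Chit1, a chitinase, at 151 CPM in joint carriers against 0.401 CPM in the others, and Zfp560 at 418 CPM in joint carriers against 9.23 CPM in the others. Weighted by cluster, the log2 ratio of Inpp4b was 0.77, under the rule, against 6.80 without weighting, and that of Popdc3 was 1.01, against 6.85, while Chit1 (1.39) and Zfp560 (3.46) stayed past it. Very long genes were among them, with Ccser1 at 666 CPM in joint carriers against 5.23 CPM in the others, Csmd1 at 220 CPM in joint carriers against 2.21 CPM in the others and Dlgap2 at 302 CPM in joint carriers against 4.68 CPM in the others.

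Fewer genes were lower in joint carriers against both comparison sets. Among the 38 that were lower against all other kept cells and when weighted by cluster, Atp10a was at 3.84 CPM in joint carriers and 26.0 CPM in the others, Sdk1 at 6.91 CPM in joint carriers against 41.6 CPM in the others, Lcorl at 24.6 CPM in joint carriers against 69.5 CPM in the others, Abcc4 at 37.6 CPM in joint carriers against 103 CPM in the others and Cdc25a, a phosphatase of the cell cycle, at 32.2 CPM in joint carriers against 68.2 CPM in the others. Joint carriers held 5 to 49 UMIs of each of these genes, so their ratios carry wide counting error.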
